A study of Mus musculus with 4 samples.

Results

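Zfp genes, named in mouse for zinc finger protein, were described in sorted mouse embryonic stem (ES) cells that did or did not transcribe Zscan4. The 263 members were the symbols made of Zfp and a number only in the RefSeq table, Zfp42 left aside, chosen by a mean level over the 4 libraries of at least 1 FPKM, a read count divided by transcript length and by library size. That level was taken over both fractions together and is not a result. The table held 328 such symbols, so 65 lay below the level, among 19797 symbols of which 12050 reached it and were tested. All libraries came from a single reporter line, MC1-ZE7, made in MC1 ES cells of the 129S6/SvEvTac strain, in which the fluorescent protein Emerald marks Zscan4 transcription. The cells were grown on gelatin without feeders in serum and leukemia inhibitory factor, received no other treatment, and were sorted by Emerald brightness into an Em+ fraction, the high fraction, with 2 libraries, and an Em- fraction with 2 libraries. Each library was made from the total RNA of many sorted cells after removal of ribosomal RNA, so fewer cells that hold a transcript and less RNA of it per cell cannot be told apart.

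Zinc finger proteins of the C2H2 type hold tandem fingers, each folded around a zinc ion and able to contact a few bases of DNA. Many of those in mouse also carry a KRAB domain near the start of the protein, which binds the corepressor Trim28. Trim28 in turn brings the histone H3 lysine 9 methyltransferase Setdb1, heterochromatin proteins and other silencing factors, and in ES cells this machinery keeps many endogenous retroviruses and imprinted regions silent. The genes often lie side by side in clusters formed by duplication.

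The symbols were checked against the proteins they encode. A coding sequence was matched for 261 of the 263 members, and 255 of these held at least 1 C2H2 finger by the pattern C-X2-4-C-X12-H-X3-5-H. The median was 11 fingers, and Zfp142 had the most, 36. The 6 members with 0 fingers by this pattern were Zfp36, Zfp330, Zfp365, Zfp750, Zfp839 and Zfp935, and Zfp36 is known as an RNA-binding protein with fingers of another type. A KRAB signature was found in 151 members and not in 110.

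The RefSeq counts summed to 17927765 and 16468218 in the Em+ libraries and to 18364973 and 18953217 in the Em- libraries, where those of Em- replicate 1 were computed from its FPKM. They made up 49.0% and 43.4% of the library totals behind FPKM in Em+, and 51.1% and 50.7% in Em-. Em+ replicate 2 thus had the smallest RefSeq sum but the largest library total, 37905679. Replicates were further apart in Em+, where the median absolute log2 difference between them over the members was 0.12, than in Em-, where it was 0.061. After scaling, replicate 2 lay above replicate 1 in Em+ for 164 of the 263 members, beside 5856 of the 12050 genes tested. In Em- it did so for 149 members, beside 6054 genes. Levels per library are given as CPM, counts in tested genes divided by the library size after TMM scaling, which is not corrected for transcript length. Transcripts of Zscan4, the target of the sort, summed to 212 and 224 CPM in Em+ libraries and to 1.81 and 2.27 CPM in Em- libraries, which goes with the sample titles, while the description field of each sample names the other fraction. The 13 marker genes of the 2-cell-like state summed to 190 and 171 FPKM in Em+ and to 0.903 and 1.76 FPKM in Em-. Zscan4 genes are among these 13, so their sum is not separate from the sort. The 6 ES cell markers summed to 891 and 683 FPKM in Em+ and 950.0 and 940.2 FPKM in Em-. FPKM over all tested genes was also lower in Em+, at 276842 and 226278, beside 293745 and 284478 in Em-. After TMM scaling the log2 fold changes of the ES cell markers went both ways. They were 0.48 for Nanog, which alone passed the test described below (edgeR adjusted p = 0.0192), 0.27 for Klf4 and 0.02 for Zfp42. Those of Pou5f1, Sox2 and Esrrb were -0.27, -0.29 and -0.19. The 6 fibroblast markers analysed summed to 8.97 and 6.99 FPKM in Em+ and to 5.33 and 5.68 FPKM in Em-. In mean, 5 of the 6 were higher in Em+, and none was at 0 in all libraries. The 2 at 1 FPKM or more were Thy1 and Pdgfrb. Thy1 passed the same test (log2 fold change 0.89, edgeR adjusted p = 0.00386), and Pdgfrb did not (0.06, edgeR adjusted p = 0.742). The part of such cells in the results was not tested. Lists for primitive endoderm, mesendoderm, neuroectoderm and trophoblast each summed to at most 3.16 FPKM in any library. Whether the replicates are independent cultures or sorts is not stated in any label, so the tests below reflect the scatter among these 4 libraries and no more.

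A minority of the Zfp genes passed the test, all of them higher in Em+ cells, and a single one, Zfp352, stood far from all others. By the quasi-likelihood test of edgeR, with p-values adjusted by the Benjamini-Hochberg method over the 12050 genes and a threshold of 0.05, 19 of the 263 members (7.22%) were higher in Em+, beside 3.82% of all genes tested. None was lower, beside 0.822% of all genes. Of the 19, Zfp352 and Zfp677 reached 1 FPKM only through Em+, as did 230 of the 12050 genes tested. At an unadjusted p under 0.05 there were 65 members higher and 12 lower, beside 14.5% and 10.7% of all genes. DESeq2 called 25 members higher (9.51%) and 0 lower, beside 4.38% of all genes called higher. With limma on log2(FPKM + 1) 5 members were called higher (1.90%), near the 1.88% of all genes. The 2 Em+ values lay above both Em- values for 116 members and below both for 49, beside 29.7% of all genes in each direction. The number called changed with the library left out. It was 91 higher and 19 lower without Em+ replicate 1, where 21.9% of all genes were called higher, and 40 higher and 12 lower with Em+ replicate 2 left out, where 9.43% were. With Em- replicates 1 and 2 left out in turn, the members' median log2 fold change was 0.09 and 0.08, beside 0.00 over all genes both times.

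**Figure D1:**
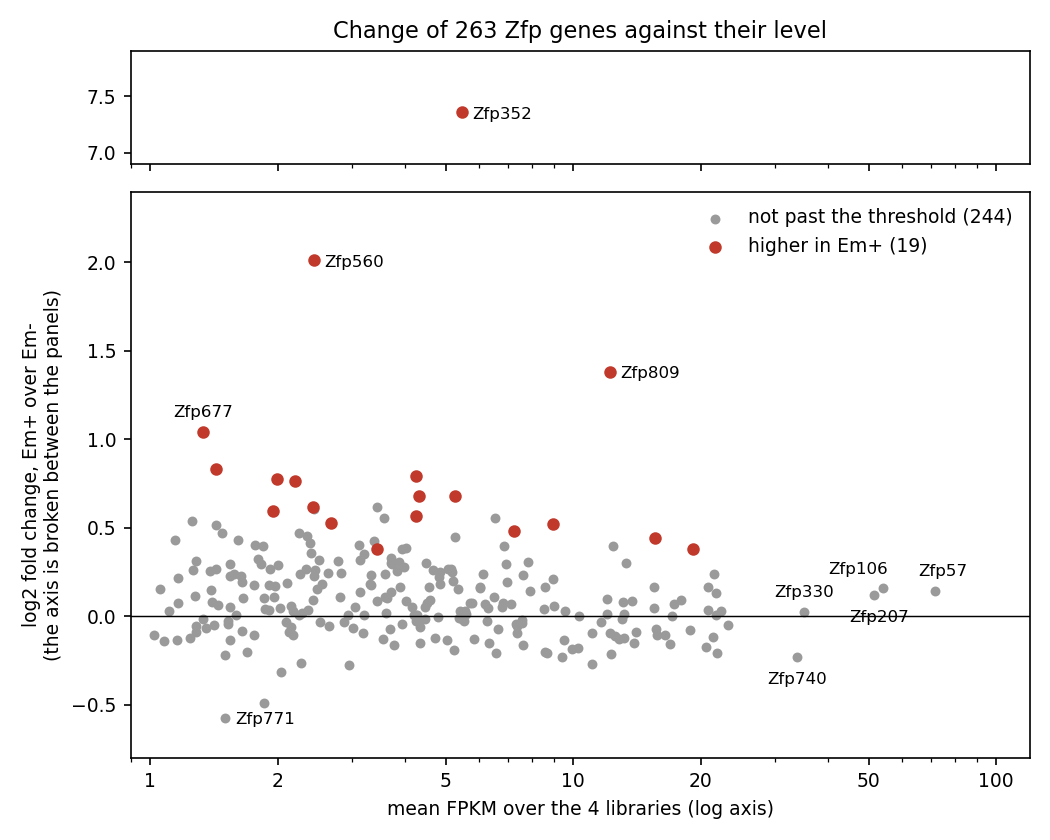
Each point is 1 of the 263 Zfp genes, with its mean FPKM over the 4 libraries on a log axis and its log2 fold change, Em+ over Em-, on the vertical axis, which is broken between the panels. Red points are the 19 genes past the threshold, all above 0, and Zfp352 at 7.36 stands alone in the upper panel while the most abundant genes lie close to 0.

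The log2 fold change of Em+ over Em- lay within 0.25 of 0 for 188 of the 263 members (71.5%), beside 73.9% of all genes tested. It was at least 1 for 4 members (1.52%), beside 1.79% of all genes, and no member reached -1. Both shares were near those of all genes. The median was 0.08, beside 0.00 over all genes tested, and 176 members (66.9%) had a positive value, beside 50.7% of all genes. Summed over the members, the level was 13714.5 and 14488.0 CPM in the Em+ libraries and 13149.3 and 13240.4 CPM in the Em- libraries, both Em+ sums lying above both Em- sums. A scaling by library totals moved the median of all genes to -0.16 and that of the members to -0.08, so the sign of the members' median holds only relative to all genes. The difference between the medians was 0.08, and it ran between 0.02 and 0.11 in the 17 alternative settings.

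The 4 members with a log2 fold change of at least 1 were Zfp352, Zfp560, Zfp809 and Zfp677. They are described first because their differences were known from earlier results of these data, so their values are given as a description. The bases just upstream of each gene are shown to set its promoter beside its level, as RefSeq gives them for build GRCm38.p6, 250 bases each, read 5′ to 3′ on the gene's strand and ending at the base before the annotated transcript start. The windows are chr4:90218570-90218819 on the plus strand for Zfp352, chr9:20385159-20385408 on the minus strand for Zfp560, chr9:22225453-22225702 on the plus strand for Zfp809 (the first of 2 listed starts) and chr17:21383498-21383747 on the plus strand for Zfp677. Capitals mark the letters TAATCC.
Zfp352: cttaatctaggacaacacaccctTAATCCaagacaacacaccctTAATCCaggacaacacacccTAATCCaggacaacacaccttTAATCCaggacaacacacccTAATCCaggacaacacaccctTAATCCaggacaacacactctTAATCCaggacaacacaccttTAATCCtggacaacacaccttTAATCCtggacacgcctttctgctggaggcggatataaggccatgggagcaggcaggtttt
Zfp560: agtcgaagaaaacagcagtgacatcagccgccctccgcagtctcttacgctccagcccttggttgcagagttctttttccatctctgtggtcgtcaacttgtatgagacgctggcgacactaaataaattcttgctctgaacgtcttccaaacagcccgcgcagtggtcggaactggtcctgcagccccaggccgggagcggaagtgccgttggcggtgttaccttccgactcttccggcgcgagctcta
Zfp809: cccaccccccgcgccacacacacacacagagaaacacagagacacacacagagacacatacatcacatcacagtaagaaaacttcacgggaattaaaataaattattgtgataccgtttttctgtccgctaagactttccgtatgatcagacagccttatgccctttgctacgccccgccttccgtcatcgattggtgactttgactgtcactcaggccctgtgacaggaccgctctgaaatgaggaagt
Zfp677: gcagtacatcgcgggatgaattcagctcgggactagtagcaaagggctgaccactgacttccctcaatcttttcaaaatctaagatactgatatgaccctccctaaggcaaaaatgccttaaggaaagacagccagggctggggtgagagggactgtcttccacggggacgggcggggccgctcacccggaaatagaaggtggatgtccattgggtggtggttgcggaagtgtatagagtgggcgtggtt

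The window of Zfp352 is built of a short tandem repeat. It holds TAATCC 9 times, all on the gene's strand, and the 10 letters gacaacacac 9 times as well, in alternation with it. TAATCC was searched after this promoter had been read, over the 300 bases from 250 before to 50 after each start, on both strands. It was present in 8.14% of the 27025 symbols with a promoter in the RefSeq table and in 8.72% of the 218 members with one. Of the 8549 tested genes with a promoter there, 6.77% held it. Zfp352 was the only symbol of the 27025 with at least 5 copies in 1 window. The other 3 windows printed hold none. The motif reported for the 2-cell factor Dux was in 1 of the 218 members (0.459%), 0.117% of these tested genes and 0.244% of all symbols. TGCACAC, reported for Zscan4, was in 7 members (3.21%), 4.47% of these tested genes and 5.02% of all symbols. Neither was in a promoter of the 15 matched members that were higher in Em+.

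Zfp352 (chr4:90218820-90225687, build mm10) encodes a protein with 3 C2H2 fingers and no KRAB signature, and its transcript is known for a burst at the 2-cell stage of the mouse embryo. It had 53.0 and 55.1 CPM in Em+ libraries and 0.330 and 0.316 CPM in Em- libraries, from 950 and 873 counts in Em+ and 6 and 6 counts in Em-. Both Em+ libraries were far above both Em- libraries, with a 167-fold ratio of means and a log2 fold change of 7.36 ± 0.15 (SE). It was 1 of 2 members, with Zfp677, that reached a mean of 1 FPKM only through Em+. The Ensembl, ENCODE and known-gene tables list the gene as a pair of models and split its reads between them. An unspliced model of 1656 bases at chr4:90223625-90225280, which has the length of the coding sequence, had 905 and 835 counts in Em+ and 6 and 6 in Em-. The longer spliced model that starts at the promoter above had 39 and 45 counts in Em+ and 0 and 1 in Em-. How reads shared by both models were assigned is not given in the sources used here, so the split does not show which was transcribed.

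Zfp560 (chr9:20345136-20385158) encodes a KRAB zinc finger protein with 15 fingers. Its level was 38.1 and 41.8 CPM in Em+ and 8.74 and 11.0 CPM in Em-. The fractions did not overlap, with a 4.04-fold ratio of means and a log2 fold change of 2.01 ± 0.12 (SE). The Ensembl table divides the gene into a transcript of 4751 bases and a short one of 666 bases that covers the same start and ends earlier. The short model had 612 and 548 counts in Em+ and 108 and 143 in Em-, a 5.10-fold ratio of scaled means. The long model had 224 and 254 counts in Em+ and 90 and 111 in Em-, a 2.64-fold ratio. Both models were therefore higher in each Em+ library than in each Em- library, and the difference between their ratios was not tested.

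Zfp809 (chr9:22225703-22243354) is the KRAB zinc finger protein known to bind the primer binding site of murine leukemia viruses and to start their silencing in ES cells, and the coding sequence matched here holds 7 fingers. It reached 56.0 and 65.4 CPM in Em+ libraries and 23.2 and 23.4 CPM in Em- libraries. Both Em+ values were above both Em- values, and the log2 fold change was 1.38 ± 0.10 (SE). At a mean of 12.2 FPKM it was the most abundant of these 4 genes per length of transcript. Its neighbor Zfp599 starts 4075 bases beyond its end, also encodes a KRAB protein, and had 37.7 and 42.4 CPM in Em+ and 25.1 and 24.9 CPM in Em- (log2 fold change 0.68 ± 0.09, edgeR adjusted p = 0.00501). Zfp810, the next member along the chromosome, had 16.1 and 19.3 CPM in Em+ and 16.05 and 15.7 CPM in Em- and did not pass (0.16 ± 0.12, edgeR adjusted p = 0.451). The RefSeq table lists the microRNA Mir680-2 over a span that includes Zfp809 and Zfp599, and no other symbol with reads overlapped a member that passed.

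Zfp677 (chr17:21383748-21399265), a KRAB gene whose protein holds 16 fingers, was the least abundant of the 4. Its level was 10.9 and 11.2 CPM in Em+ and 5.11 and 5.64 CPM in Em-. The replicates lay close together in both fractions and did not overlap between them, with a log2 fold change of 1.04 ± 0.13 (SE).

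**Figure D2:**
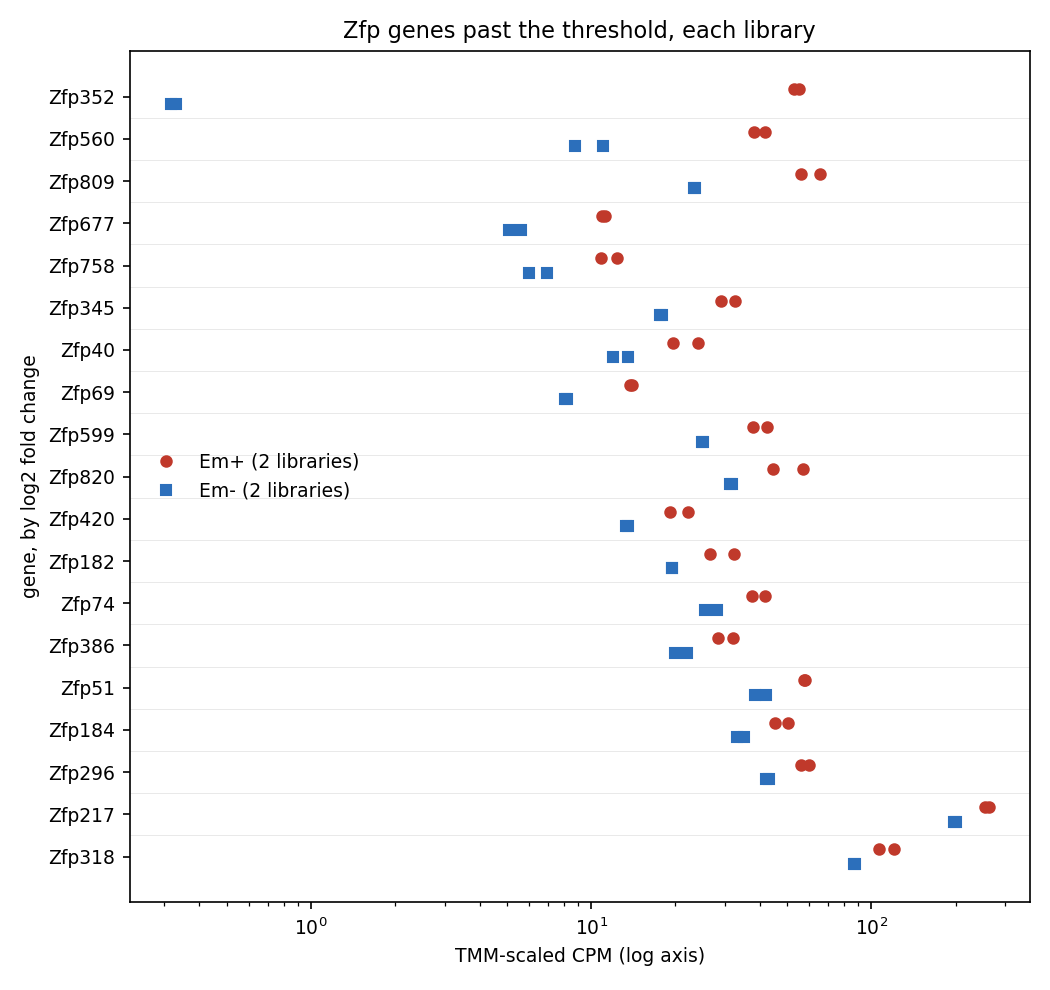
Each row is 1 of the 19 Zfp genes past the threshold, ordered by log2 fold change, with TMM-scaled CPM on a log axis. Red circles are the 2 Em+ libraries and blue squares, just under them, the 2 Em- libraries, and in every row both circles lie to the right of both squares.

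The other 15 members past the threshold were higher in Em+ by log2 fold changes of 0.38 to 0.83, less than a doubling. Zfp345 passed in all 17 alternative settings. Each of the other 14 missed the threshold with limma, both on log2(FPKM + 1) and on log2(FPKM + 0.1). With library totals Zfp182, Zfp184, Zfp217, Zfp296, Zfp318, Zfp386, Zfp420, Zfp51 and Zfp74 missed it too. Losses named below for single genes are in further settings. Among the 15 members, KRAB genes outside the chromosome 17 cluster and away from Zfp809 were Zfp345, Zfp69, Zfp182, Zfp74, Zfp386 and Zfp184. Zfp345 on chromosome 2 had 29.0 and 32.7 CPM in Em+ and 18.0 and 17.5 CPM in Em- (0.79 ± 0.10, edgeR adjusted p = 0.00398). Zfp69 on chromosome 4, known as a candidate gene for diabetes in obese mice, had 13.9 and 13.7 CPM in Em+ and 8.08 and 8.22 CPM in Em- (0.76 ± 0.11, edgeR adjusted p = 0.0106). For both, the replicates of a fraction differed far less than the fractions did. Zfp182 on chromosome X had 26.6 and 32.3 CPM in Em+ and 19.4 and 19.5 CPM in Em- (0.60 ± 0.11, edgeR adjusted p = 0.0303). Zfp386 on chromosome 12 had 28.5 and 32.0 CPM in Em+ and 19.9 and 22.0 CPM in Em- (0.53 ± 0.10, edgeR adjusted p = 0.0309). In both genes no library crossed into the other fraction's range. Zfp184 on chromosome 13 had 50.4 and 45.4 CPM in Em+ and 33.2 and 35.3 CPM in Em- (0.48 ± 0.09, edgeR adjusted p = 0.0223). Zfp184 and Zfp386 no longer passed without Em- replicate 1. In the Ensembl table Zfp184 had a log2 fold change of 0.24 (edgeR adjusted p = 0.394) and it was at 0.35 in the ENCODE table (edgeR adjusted p = 0.164). The call of Zfp182 was lost in the Ensembl, known-gene and ENCODE tables, at edgeR adjusted p-values of 0.0561, 0.0512 and 0.0535.

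Members without a KRAB signature that passed were, besides Zfp352, Zfp420, Zfp296, Zfp217 and Zfp318. Zfp296, known as a partner of the reprogramming factor Klf4 in ES cells, had 56.1 and 59.7 CPM in Em+ and 43.1 and 41.9 CPM in Em- (0.44 ± 0.08, edgeR adjusted p = 0.0204). Zfp217, a regulator that associates with histone demethylase and RNA methylation complexes, had 263 and 254 CPM in Em+ and 199.9 and 197 CPM in Em- (0.38 ± 0.06, edgeR adjusted p = 0.0159). It was the most abundant of the 19 per length, at a mean of 19.2 FPKM. Zfp318, known from B cells for its part in the expression of immunoglobulin D, had 107 and 120.1 CPM in Em+ and 87.3 and 87.1 CPM in Em- (0.38 ± 0.08, edgeR adjusted p = 0.0393). The calls of Zfp217, Zfp296 and Zfp318 were lost when either Em- library was left out, and that of Zfp318 also with no filter on low values and in the known-gene table.

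The most abundant members did not pass the test. By mean FPKM they were Zfp57 at 71.5, Zfp106 at 53.9, Zfp207 at 51.5, Zfp330 at 35.1 and Zfp740 at 33.7. Zfp57, the KRAB protein that keeps imprinted regions methylated in ES cells, had 372 and 415 CPM in Em+ and 360.0 and 352 CPM in Em- (0.15 ± 0.08, edgeR adjusted p = 0.272). Its Em+ values lay above its Em- values, and its means differed by less than the 2 Em+ libraries did. Zfp445, which also maintains imprints and is named after its values were seen, had a log2 fold change of 0.30 with an edgeR adjusted p of 0.0654. Zfp106, an RNA-binding protein, had 1047 and 1115 CPM in Em+ and 966 and 973 CPM in Em- (0.16 ± 0.08, edgeR adjusted p = 0.272). Zfp207, which takes part in spindle assembly, had 328 and 352 CPM in Em+ and 311 and 315 CPM in Em- (0.12 ± 0.07, edgeR adjusted p = 0.305). For both genes the Em+ libraries were the higher ones. Zfp330 overlapped between the fractions, with 127 and 114 CPM in Em+ and 115 and 122 CPM in Em-.

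The textbook members Zfp281, Zfp143 and Zfp36 did not pass. Zfp281, a regulator of Nanog, had 242 and 235 CPM in Em+ and 234 and 239.7 CPM in Em- (log2 fold change 0.01 ± 0.06). Zfp143, which binds promoters and chromatin loop anchors, had 117 and 113 CPM in Em+ and 120.5 and 123 CPM in Em- (-0.08 ± 0.06). Zfp36, which binds AU-rich elements of messenger RNA and promotes their decay, had 16.1 and 18.0 CPM in Em+ and 16.8 and 15.5 CPM in Em- (0.07 ± 0.11). The Em+ and Em- values overlapped for Zfp281 and Zfp36, and for Zfp143 both Em+ values were the lower ones. Zfp42 (Rex1), which is not counted among the members and is an ES cell marker itself, had 573 and 563 CPM in Em+ and 559 and 565 CPM in Em- (0.02 ± 0.07).

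No member passed the threshold in the lower direction. The 5 with the lowest unadjusted p were Zfp652, Zfp740, Zfp459, Zfp568 and Zfp365. Zfp652 had 109 and 116 CPM in Em+ and 127 and 133 CPM in Em- (-0.21 ± 0.07, edgeR adjusted p = 0.118). Zfp740 had 275 and 245 CPM in Em+ and 311 and 299 CPM in Em- (-0.23 ± 0.08, edgeR adjusted p = 0.126). Zfp568, a KRAB protein known to repress a placental transcript of Igf2, had 292 and 286 CPM in Em+ and 324 and 328 CPM in Em- (-0.18 ± 0.06, edgeR adjusted p = 0.147). In all of these both Em+ values were below both Em- values. The farthest below 0 were Zfp771 at -0.58 ± 0.24 and Zfp787 at -0.49 ± 0.19, both with few reads, at 2.84 and 3.28 CPM in Em+ and 5.50 and 3.64 CPM in Em- for Zfp771. Without Em- replicate 1 these values were -0.25 for Zfp771 and -0.23 for Zfp787. Zfp787 was at -0.18 in the known-gene table, and at -0.71 without Em- replicate 2, the setting in which it was the 1 member called lower (edgeR adjusted p = 0.0443).

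The members were spread over 20 chromosomes, and 134 of them lay in 17 clusters, taken as runs of at least 4 members whose starts lay within 1 Mb of the next. By this spacing 9 of the 134 members in clusters (6.72%) and 10 of the 129 outside (7.75%) were higher in Em+, beside the 3.82% of all genes, and the median log2 fold change was 0.08 in both. A spacing of 0.5 Mb gave 16 clusters with 120 members, 9 of them higher, against 10 of the 143 outside (6.99%), and neither difference was tested. The medians of the clusters ran between -0.09 for the 7 members on chromosome 7 around Zfp771 and Zfp668 and 0.31 for the 4 on chromosome 8 around Zfp882, and 13 of the 17 were above 0. The largest number on any chromosome, 64, was on chromosome 7, where 3 were higher in Em+ and the median was -0.01. The 37 members on chromosome 17 had a median of 0.26, and they made up 6 of the 15 genes of that chromosome that were higher in Em+, out of 617 tested there.

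**Figure D3:**
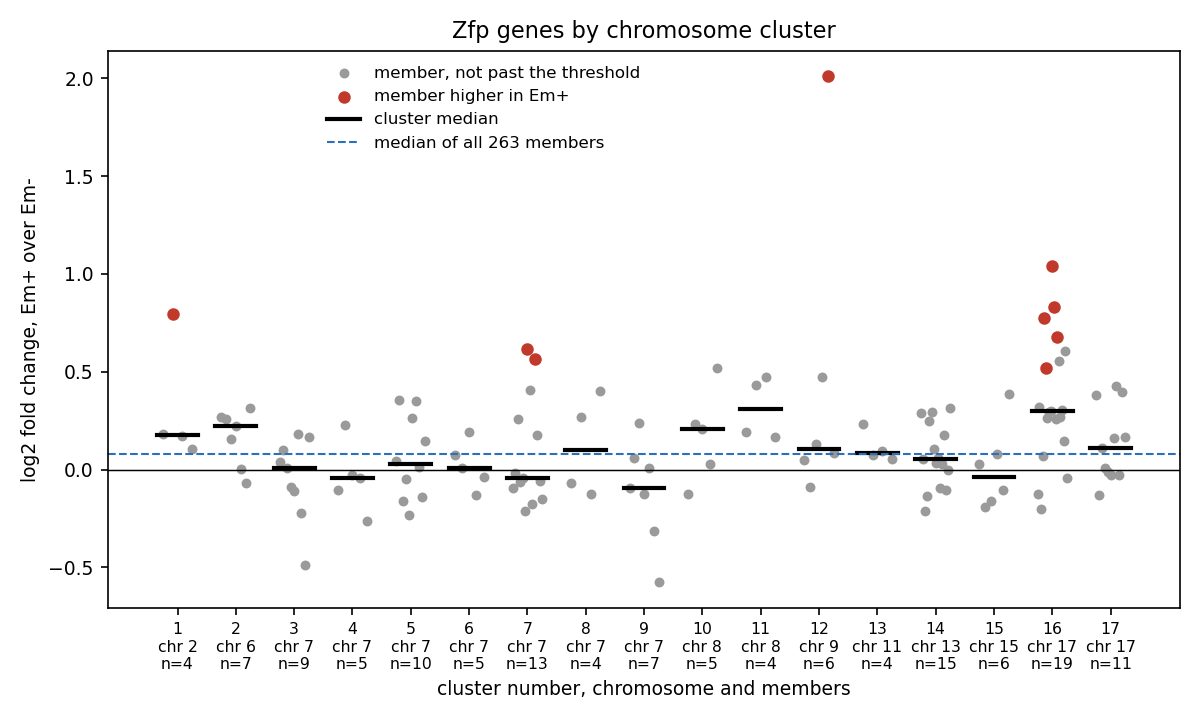
Log2 fold changes, Em+ over Em-, of the 134 Zfp genes in clusters, with 1 column for each of the 17 clusters, numbered by chromosome and position. Grey points did not pass the threshold, red points were higher in Em+, black bars are cluster medians and the dashed line is the median of all 263 members. Cluster 16 on chromosome 17 holds 5 of the 9 red points, and the highest point is Zfp560 in cluster 12.

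The cluster on chromosome 17 between 21008941 and 23599487 (build mm10) held 19 members, 17 of them with a KRAB signature, and 5 passed the test, beside 3.82% of all genes. These were Zfp677, Zfp758, Zfp40, Zfp820 and Zfp51, and no member passed in the lower direction. Zfp677 reached 1 FPKM only through Em+, the fraction in which it was higher. Both Em+ values were above both Em- values in 14 of the 19 members, beside 29.7% of all genes. A positive log2 fold change was found in 16 of the 19, beside 50.7% of all genes, and the median was 0.30. The summed level was 704 and 789 CPM in Em+ and 614 and 627 CPM in Em-. Zfp758 had 10.8 and 12.3 CPM in Em+ and 5.99 and 6.96 CPM in Em- (0.83 ± 0.14, edgeR adjusted p = 0.0194). Zfp40 had 19.7 and 24.004 CPM in Em+ and 13.5 and 11.96 CPM in Em- (0.78 ± 0.13, edgeR adjusted p = 0.0207). In both genes the Em+ libraries were the high ones, and Em+ replicate 2 was the highest. Zfp820 had 44.4 and 57.0 CPM in Em+ and 31.4 and 31.9 CPM in Em- (0.68 ± 0.12, edgeR adjusted p = 0.0227). Zfp51 had 58.0 and 57.4 CPM in Em+ and 38.4 and 42.0 CPM in Em- (0.52 ± 0.08, edgeR adjusted p = 0.0115), and its call was lost without Em- replicate 1. The 2 members closest to the threshold were Zfp946, with 15.997 and 20.4 CPM in Em+ and 11.5 and 12.4 CPM in Em- (0.60 ± 0.14, edgeR adjusted p = 0.0591), and Zfp942, with 46.2 and 61.8 CPM in Em+ and 37.4 and 36.1 CPM in Em- (0.55 ± 0.13, edgeR adjusted p = 0.0619). At the far end of the cluster Zfp213 had 9.98 and 7.33 CPM in Em+ and 9.23 and 10.7 CPM in Em-, with overlapping fractions.

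**Figure D4:**
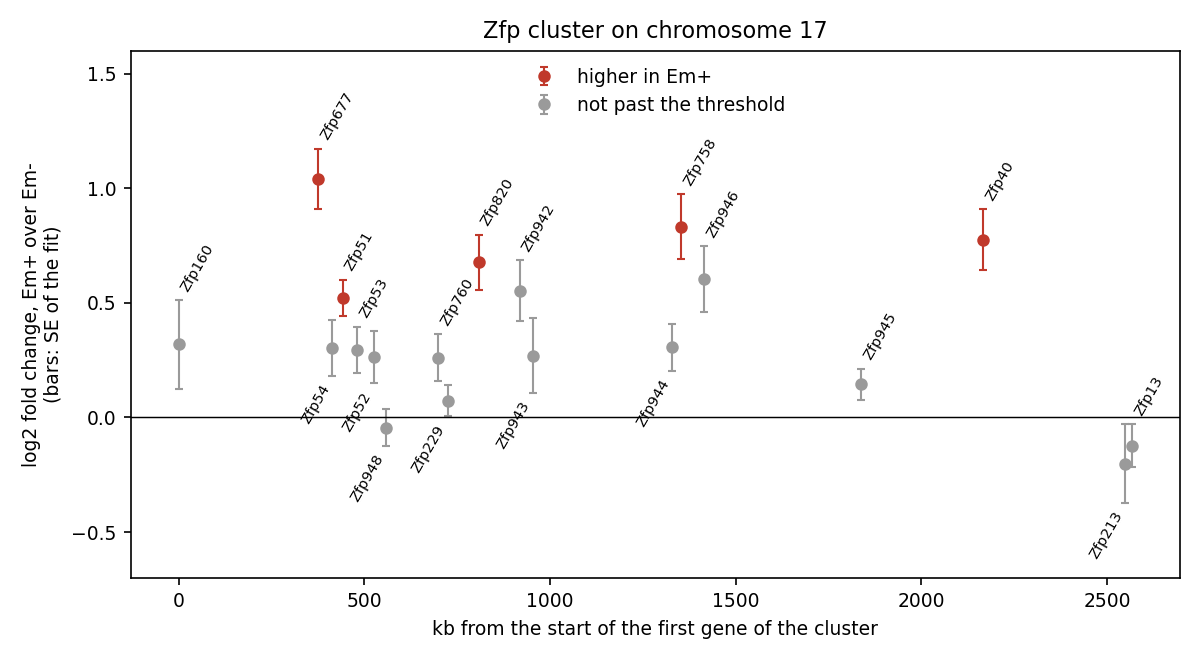
Log2 fold change, Em+ over Em-, with the SE of the fit as bars, for the 19 Zfp genes of the chromosome 17 cluster by distance in kb from the start of the first of them, Zfp160. Red points passed the threshold. They are interleaved with grey points along the cluster, and Zfp213 and Zfp13 at the right end lie below 0.

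Whether single reads could be placed in one gene of this cluster is not known, since how the counting treated reads with several matches is not given in the sources used here, and near-identical stretches among these genes leave each one uncertain as a single entry. Leaving out Em+ replicate 1 gave 15 calls in the cluster, where 21.9% of all genes were called higher, and leaving out Em+ replicate 2 gave 8, where 9.43% were. There were 5 and 7 when Em- replicates 1 and 2 were left out in turn, beside 3.79% and 4.27% of all genes. The number was 7 with DESeq2 and 1, Zfp677, with limma on log2(FPKM + 1). The difference of the cluster's median from that of all genes lay between 0.22 and 0.39 in all 17 alternatives. The 18 members of chromosome 17 outside this cluster had a median of 0.15, and 1 of them, Zfp318, passed.

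Neighbors within a cluster could differ. On chromosome 7 between 29784790 and 30169727, 13 members lay side by side, and Zfp420 and Zfp74 were higher in Em+. Zfp420 had 19.2 and 22.1 CPM in Em+ and 13.4 and 13.5 CPM in Em- (0.62 ± 0.11, edgeR adjusted p = 0.0275), and its call was lost in the Ensembl and ENCODE tables (edgeR adjusted p = 0.0557 and 0.0535). Zfp74 had 37.4 and 41.8 CPM in Em+ and 28.1 and 25.4 CPM in Em- (0.56 ± 0.09, edgeR adjusted p = 0.0175). Zfp383, which lies between them, had 60.8 and 62.7 CPM in Em+ and 68.7 and 74.1 CPM in Em- (-0.21 ± 0.08, edgeR adjusted p = 0.158). Distances of 31214 bases to Zfp420 and 15977 bases to Zfp74 separate it from these genes. Another member, Zfp27, starts between Zfp420 and Zfp383, and Zfp568 follows 32061 bases after Zfp74. The median of the 13 was -0.04, and 5 were positive.

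On chromosome 9, Zfp560 was the single member of its cluster of 6 that passed. Zfp426, a little further along, had 18.8 and 20.3 CPM in Em+ and 14.3 and 13.9 CPM in Em- and was just short of the threshold (0.47 ± 0.10, edgeR adjusted p = 0.0511). Zfp26, which lies between them, had 98.8 and 117 CPM in Em+ and 101 and 108 CPM in Em-, with overlapping fractions. Zfp266 had the lowest value of the cluster, -0.09, so the large difference of Zfp560 did not extend to every neighbor. On chromosome 2, Zfp345 was the single call among 4 members, all with positive values down to 0.10 for Zfp937. The second largest cluster, 15 members on chromosome 13 of which 14 have a KRAB signature, had no call, a median of 0.05, and values between -0.21 for Zfp459 and 0.32 for Zfp953.

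No member passed in the remaining 12 clusters. Their highest values were those of Zfp963 at 0.52, Zfp882 at 0.47, Zfp811 at 0.43, Zfp936 at 0.40, Zfp707 at 0.38, Zfp111 at 0.36, Zfp956 at 0.31, Zfp668 at 0.24, Zfp39 at 0.23, Zfp329 at 0.23, Zfp60 at 0.19 and Zfp772 at 0.18. Zfp882 came closest to the threshold among them, with 20.7 and 20.02 CPM in Em+ and 13.8 and 15.6 CPM in Em- (edgeR adjusted p = 0.0566). Their lowest values were those of Zfp771 at -0.58, Zfp787 at -0.49, Zfp606 at -0.26, Zfp428 at -0.23, Zfp41 at -0.19, Zfp607 at -0.13, Zfp414 at -0.13, Zfp866 at -0.13, Zfp819 at -0.12, Zfp777 at -0.07, Zfp867 at 0.05 and Zfp961 at 0.17. In the clusters of Zfp867, on chromosome 11, and Zfp961, on chromosome 8, all 4 members thus had positive values.

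Members with a KRAB signature had a higher median than those without. Of the 151 with one, 14 (9.27%) were higher in Em+ and the median log2 fold change was 0.16. Of the 110 without one, 5 (4.55%) were higher and the median was 0.03, beside 3.82% and 0.00 for all genes. Positive values were seen in 111 of the 151 and in 65 of the 110. Relative to the median of all genes, the KRAB median was higher by 0.07 to 0.16 over the 17 alternatives and the other median by -0.06 to 0.04. Leaving out Em+ replicate 1 gave 63 calls higher among the KRAB members (41.7%) and 28 among the others (25.5%), beside 21.9% of all genes. Leaving out Em+ replicate 2 gave 29 (19.2%) and 11 in the same order, beside 9.43% of all genes. KRAB members were also less abundant, with a median of 3.59 FPKM against 5.19 FPKM in those without. By level, the median log2 fold change was 0.12 for members at 1 to 2 FPKM and 0.03 at 5 FPKM or more. The KRAB class also includes 17 of the 19 members of the chromosome 17 cluster. The difference between the classes was not tested.

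**Figure D5:**
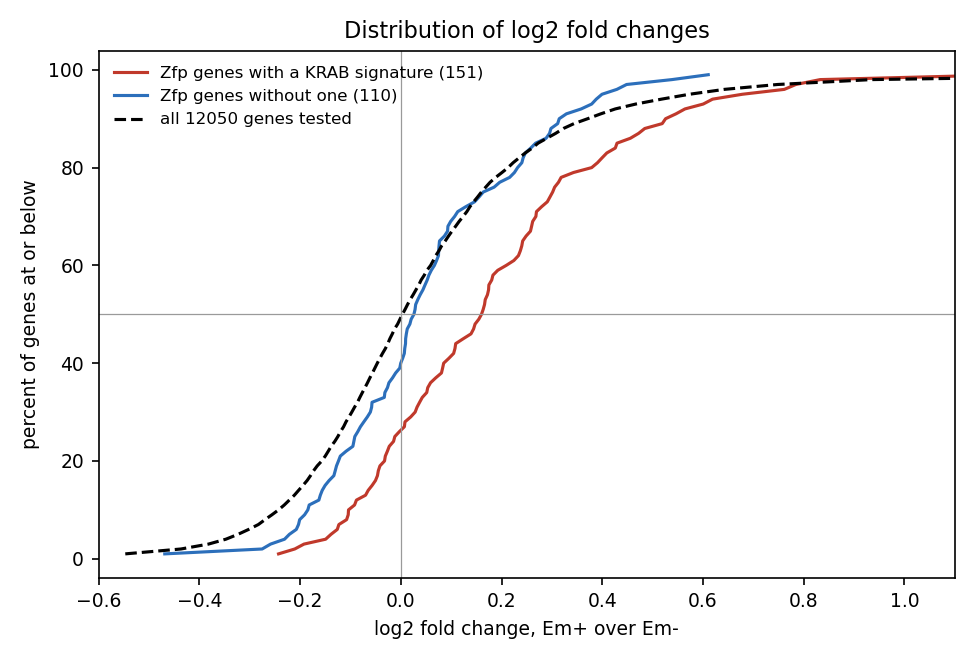
Percent of genes at or below each log2 fold change, Em+ over Em-, for the 151 Zfp genes with a KRAB signature, the 110 without one and all 12050 genes tested. The KRAB curve crosses 50 percent at 0.16, to the right of the other Zfp genes at 0.03 and of all genes at 0.00.

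By number of fingers, the 149 members with at least 10 had a median log2 fold change of 0.13 and 12 calls (8.05%), beside 3.82% of all genes. The 73 with 5 to 9 fingers had a median of 0.07 and 5 calls (6.85%), and the 33 with 1 to 4 fingers a median of 0.01 and 2 calls (6.06%). The 6 with 0 fingers had a median of 0.049 and 0 calls, and the differences between these classes were not tested. The 2 calls with 1 to 4 fingers were Zfp352 and Zfp318, the second with 2 fingers by the pattern in a protein of 2237 residues.

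Transcripts of the factors that KRAB proteins work through did not pass the threshold. Of 37 genes of the Trim28 silencing pathway, 34 were tested, and none passed in edgeR's quasi-likelihood test. At an unadjusted p under 0.05 there were 5 higher (14.7%) and 4 lower (11.8%) in Em+, near the 14.5% and 10.7% of all genes, and DESeq2 called 1. Trim28 had 963 and 944 CPM in Em+ and 886 and 898 CPM in Em- (0.10 ± 0.08, edgeR adjusted p = 0.457). Setdb1 had 188 and 199 CPM in Em+ and 174 and 175 CPM in Em- (0.15 ± 0.06, edgeR adjusted p = 0.199). Both Em+ values were the higher ones for each gene. Over the 34 genes, however, 13 had a positive log2 fold change, beside 50.7% of all genes, and the median was -0.03. Atf7ip, which stabilizes Setdb1 and is named after its values were seen, had 85.8 and 119.8 CPM in Em+ and 68.5 and 68.7 CPM in Em- (0.58 ± 0.14, edgeR adjusted p = 0.0647), and Em+ replicate 2 was far the highest. Leaving out Em+ replicate 1 gave 25 of the 34 genes past the threshold, where 41.4% of all genes passed in either direction, and Em+ replicate 2 gave 6, where 16.3% did. Leaving out Em- replicate 1 gave 2, where 4.07% of all genes passed, and Em- replicate 2 gave 3, where 4.87% did.

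The level of 1 FPKM that chose the members divides genes of like levels. Just inside it were Zfp593 at a mean of 1.02 FPKM, Zfp398 at 1.06 and Zfp93 at 1.08, and just outside it Zfp786 at 0.999, Zfp454 at 0.998 and Zfp653 at 0.968. Zfp593 and Zfp93 reached it only through Em-, as Zfp352 and Zfp677 did only through Em+. Of the 65 symbols below it, 41 had the higher mean FPKM in Em+ and 24 in Em-, and 1 had no reads in either Em- library. The largest differences among them were those of Zfp619, with 0.632 and 0.659 FPKM in Em+ and 0.266 and 0.381 FPKM in Em-, and of Zfp711, with 0.372 and 0.445 FPKM in Em+ and 0.083 and 0.117 FPKM in Em-. Zfp324 had 0.816 and 0.695 FPKM in Em+ and 1.04 and 1.02 FPKM in Em-. Zfp438 and Zfp764 followed, at mean differences of Em+ minus Em- of 0.243 and -0.235 FPKM.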

How the data were processed

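Sample titles gave the groups and replicate numbers, and the column letters H and N were read as the high and the negative fraction. The authors deposited 4 tables, on RefSeq, known-gene, ENCODE and Ensembl transcripts. Per the file headers they hold a raw count and an FPKM per transcript and library. The submitters' processing notes name Bowtie2 (version not given) and mm10. The sources used here do not name the counting program, its use of strand or the annotation releases.

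In the RefSeq and Ensembl tables the counts of Em- replicate 1 are all 0. They were computed from its deposited FPKM, the transcript length and the library total behind FPKM, with 0.0005 added because its FPKM has 3 decimals. Applied to the other libraries this returned the exact count for all 412 Zfp transcripts of the RefSeq table and for at least 99.95% of all 24538.

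RefSeq values were summed per symbol. Genes at 1 FPKM or more on average were tested with edgeR 4.0.16 (R 4.3.3; quasi-likelihood F test, TMM, two-sided, no covariate, Benjamini-Hochberg adjustment, threshold 0.05). The script was tested on simulated data. The SE of a log2 fold change is derived from the F statistic. With 2 libraries against 2, a single value could not go below an exact two-sided permutation p of 0.333, so no such test was run. Alternatives used DESeq2 1.42.0, limma 3.58.1 on log2(FPKM + 1) and log2(FPKM + 0.1), other scalings, filters and tables, a replicate block, and each library left out. Fingers and KRAB signatures were read by pattern from translated GENCODE M21 coding sequences, and promoters from RefSeq (GRCm38.p6). The files' 0-based starts were raised by 1.

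Named were the members past the threshold, the 5 most abundant, the 5 lowest p among those lower, those nearest to 1 FPKM on either side, the 5 largest differences below it, the extremes of each cluster, Trim28, Setdb1 and textbook members. The members and lists were chosen with earlier results of these data known. Reads carry no molecular identifiers.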

Additional observations from a re-analysis of the deposited data

How the results depend on the processing

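The 19 members called higher became 10 (3.80%, with 2 lower) when library totals replaced TMM scaling, beside 2.77% of all genes called higher. With limma on log2(FPKM + 1) and on log2(FPKM + 0.1) they became 5 each (1.90%), beside 1.88% and 1.78% of all genes. The members' share was thus near that of all genes with limma. The replicate block gave 42 (16.0%), beside 9.05% of all genes. Leaving out 1 library gave 16 to 91 higher and 0 to 19 lower. The members' median log2 fold change was -0.080 with library totals, -0.063 and -0.081 with limma at pseudocounts of 1 and 0.1, 0.045 with no filter and 0.052 with filterByExpr, and the all-gene medians under the 3 settings with a negative value were -0.16, -0.14 and -0.16. In these 3 settings the median of all genes was thus below 0 as well, and the cause of these and the other changes was not tested. Corepressor genes called were 1 with no filter, 1 with filterByExpr, 1 with DESeq2, 5 with the replicate block and 2 to 25 with a library left out. The 5 calls in other zinc finger families became 9 with no filter, 10 with filterByExpr, 14 with the replicate block, 3 with the Ensembl table, 3 with the ENCODE table (added after seeing the data), 3 with limma at each pseudocount and 5 to 35 with a library left out. Over all genes, calls with the replicate block rose as well, from 460 higher and 99 lower to 1090 and 462 of 12050. They were 887 and 291 of 19797 with no filter, 942 and 305 of 15848 with filterByExpr, and 528 and 151 with DESeq2. For a library left out, the shares of all genes are given above. The 3 Zscan4 genes, the target of the sort, are among the 5 calls in other families. Whether these sets moved more than all genes was not tested. Replicate numbers pair nothing known. The correlation of deviations between Em+ and Em- libraries of a number was 0.0235. The block thus shows only how a shared number moves the count. A lone library left in a fraction is assumed to vary like the other fraction. Replicates of the least abundant members were further apart: at 1 to 2 FPKM the median log2 difference between replicates was 0.16 in Em+ and 0.12 in Em-, against 0.10 and 0.03 at 5 FPKM or more.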

Other observations

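Other zinc finger families, told apart by symbol, are given beside the 3.82% of all genes tested that were higher in Em+. Among 13 tested Zscan genes the 3 called higher in Em+ by edgeR were Zscan4a, Zscan4c and Zscan4d, the target of the sort and no finding, and the others with a SCAN domain did not pass. Of 10 tested Zkscan genes, which join SCAN and often KRAB domains to fingers, none passed in edgeR's test. At an unadjusted p under 0.05, 5 of the 10 were higher, beside 14.5% of all genes. Positive values were seen in 9 of 10, beside 50.7% of all genes, and the median log2 fold change was 0.22. Zkscan7 came closest, with 16.1 and 15.98 CPM in Em+ and 11.2 and 11.9 CPM in Em- (0.47, edgeR adjusted p = 0.0556). Of 31 tested Zbtb genes, whose proteins join a BTB domain to fingers, 1 passed. This was Zbtb32, a repressor known from lymphocytes, with 38.3 and 40.5 CPM in Em+ and 29.8 and 29.3 CPM in Em- (0.41 ± 0.08, edgeR adjusted p = 0.0280).

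Of the 19 tested Zfp symbols that end in letters, and so fell outside the pattern, 1 passed, beside 3.82% of all genes. Zfp518b had 103 and 95.8 CPM in Em+ and 77.6 and 79.6 CPM in Em- (0.34 ± 0.07, edgeR adjusted p = 0.0425). Positive values were seen in 17 of the 19, beside 50.7% of all genes, and the median was 0.11.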
